A study of Caenorhabditis elegans with 3 samples.

Results

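The gene rcat-1 (R02D3.7, WBGene00019824) and its neighbours at the left end of chromosome IV were described in a chromatin immunoprecipitation and sequencing (ChIP-seq) experiment that mapped where the tagged rcat-1 product sat on the genome. The region was every peak with its summit between 153 kb and 356 kb of chromosome IV (ce11), which is 100 kb either side of rcat-1. The 5 genes followed in detail, rcat-1, cogc-8, R02D3.8, aass-1 and dpy-9, were chosen by measured values. The peaks at their promoters ranked from 1 to 365 among the 11533 called on the replicates together. Those of dpy-9 and aass-1 were below the median strength of the thresholded list, at 0.711 and 0.609 times it. Peak strengths and ranks of the 5 genes are therefore given as a description with no test. A peak was assigned to a gene when its summit lay in the promoter window of that gene, which reaches from 1000 bp before an annotated transcript start to 200 bp after it. The region held 6 of the 390 peaks that the authors kept in their thresholded list, 38 of the 11533 peaks in the list called on the replicates together (the pooled list), and 58, 74 and 67 of the 27624, 28357 and 30000 peaks in the lists of replicates 1, 2 and 3.

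All samples were whole Caenorhabditis elegans of the L4 larval stage, males and females pooled, of strain OP218, whose genotype is unc-119(ed3) III with the insertion wgIs218. The 3 biological replicates form 1 group and all carry R02D3.7 with a green fluorescent protein tag, given for replicate 3 as a C-terminal GFP-FLAG fusion. Replicates 1 and 2 are labelled with a range of fragment sizes and a stock centre, whereas replicate 3 is labelled with microtip sonication and a laboratory, so a difference of replicate 3 cannot be told apart from these. Peaks were called against a control alignment, which was not analysed here. The labels do not say how much sequence around R02D3.7 the insertion holds. Reads from an inserted copy and from the native gene align to the same place, so extra copies of this region and more protein on it cannot be told apart.

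C2H2 zinc finger proteins form a large family in which small zinc-binding folds, each touching a few bases, are strung together to read a DNA sequence, and many of them regulate transcription. The annotation gives the rcat-1 product a C2H2-type domain. ChIP-seq recovers the DNA that is crosslinked to a protein, and a peak is a stretch with more reads than the control, with its summit where the reads pile highest. A transcription factor found at the promoter of its own gene is a common arrangement and a requirement for direct autoregulation, but binding alone does not show regulation.

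The sequence at or next to the summits is shown first, because the 3 strongest peaks of the region shared an 8-base word that its other thresholded peaks lacked near the summit. Each stretch is written 5′ to 3′ on the strand of its gene, from the WBcel235 reference, with the words searched for in capitals. The 8-mer CGTAAATC, or its reverse complement GATTTACG, is in capitals in the rcat-1 stretch (chrIV:255541-255741, minus strand), the R02D3.8 stretch (chrIV:257204-257402, minus strand) and the cogc-8 stretch (chrIV:240516-240545, plus strand). In the aass-1 stretch (chrIV:245043-245142, plus strand) the capitals mark the 6-mer CGACAC. The aass-1 stretch ends before the summit, which is at 245152. The dpy-9 stretch (chrIV:259865-259988, minus strand) and the stretch around the second summit at rcat-1 (chrIV:255780-255900, minus strand) hold neither word. The stretches differ in length, so they cannot be compared for words they lack. A CGACAC copy near the cogc-8 summit, at 240478 to 240483, lies outside the cogc-8 stretch.
rcat-1: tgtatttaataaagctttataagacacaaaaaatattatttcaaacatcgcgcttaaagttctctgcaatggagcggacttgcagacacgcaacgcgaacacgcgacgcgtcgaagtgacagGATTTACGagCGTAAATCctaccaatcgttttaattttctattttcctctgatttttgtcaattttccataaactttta
R02D3.8: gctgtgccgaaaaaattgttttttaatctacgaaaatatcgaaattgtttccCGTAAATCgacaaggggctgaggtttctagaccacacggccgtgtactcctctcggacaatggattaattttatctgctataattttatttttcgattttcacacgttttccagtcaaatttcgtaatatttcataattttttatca
cogc-8: gctctcatgtgGATTTACGggcagccaacg
dpy-9: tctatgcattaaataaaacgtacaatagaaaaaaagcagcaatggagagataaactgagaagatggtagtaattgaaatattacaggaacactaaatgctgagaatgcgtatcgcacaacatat
aass-1: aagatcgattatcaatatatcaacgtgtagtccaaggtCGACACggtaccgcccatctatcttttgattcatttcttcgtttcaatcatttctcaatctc
rcat-1 second summit: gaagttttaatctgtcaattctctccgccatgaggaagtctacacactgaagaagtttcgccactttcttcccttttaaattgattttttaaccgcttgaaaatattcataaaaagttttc

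The peak at rcat-1 was the strongest in the pooled list. The gene lies on the minus strand from 253619 to 255429, and its peak covered 255281 to 256056 with a summit at 255641, in intergenic sequence 212 bp upstream of the start. Strength here is the signal the authors' caller gave a peak; it has no stated scale and is compared within a list only. In the pooled list the rcat-1 peak had a strength of 901, which was 69.0 times the list's median of 13.1. In replicates 1, 2 and 3 its strength was 408, 177 and 297, or 93.0, 44.2 and 82.7 times the median of each list. It ranked 1, 2 and 2 in those lists (mean 1.67 ± 0.577, SD, n = 3), and its summits fell at 255670, 255677 and 255661, within 16 bp of each other. The peaks ahead of it were an intergenic one on chromosome II in replicate 2, with a strength of 185, and one between Y17G9B.5 and the ribosomal protein gene rpl-20 in replicate 3, with a strength of 337.

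The same interval carried a second listed summit at 255840, 411 bp upstream of rcat-1, with a strength of 68.7 and rank 178 in the pooled list. Replicate 1 had a second summit of its own there, at 255871, with a strength of 21.6 and rank 274. Replicates 2 and 3 listed 1 summit in the interval.

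R02D3.8 (WBGene00019825), annotated with an exonuclease domain, is the next gene upstream of rcat-1 on the same strand, from 255966 to 257203, with 536 bases between the genes. Its peak, from 257018 to 257556 with the summit at 257346, lay 143 bp upstream of its start and had a pooled strength of 492 and rank 7. The strengths were 191, 82.0 and 201 in replicates 1, 2 and 3, and the ranks were 8, 18 and 6 (mean 10.7 ± 6.43, SD, n = 3), with summits within 32 bp. The rcat-1 peak was 2.13, 2.16 and 1.48 times as strong as the R02D3.8 peak within replicates 1, 2 and 3 (mean 1.93 ± 0.385, SD, n = 3). Thus the rcat-1 peak was the stronger of the pair in all 3 replicates.

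The third member peak lay at -14.9 kb from the rcat-1 start along the plus strand, in the 143 bases and flanks that separate fnta-1 from cogc-8, 2 genes that are transcribed away from each other. cogc-8 (WBGene00019820, plus strand, 240451 to 244130) encodes a subunit of the conserved oligomeric Golgi complex, which tethers vesicles at the Golgi. fnta-1 (minus strand, 237591 to 240307) encodes the alpha subunit of the enzymes that attach farnesyl and geranylgeranyl lipids to proteins. The peak covered 240352 to 240674, and its summit at 240538 was in the 5′ UTR of cogc-8, 87 bp downstream of that start and 231 bp upstream of the fnta-1 start, so it counts for both genes. It had a pooled strength of 201 and rank 46. In replicates 1, 2 and 3 it had strengths of 96.2, 34.7 and 74.6 and ranks of 39, 81 and 40 (mean 53.3 ± 24.0, SD, n = 3), with summits within 34 bp.

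dpy-9 (WBGene00001071, minus strand, 257403 to 259204) encodes a collagen of the cuticle, the extracellular coat that larvae rebuild at each moult, and its mutants are short and stout. Its thresholded peak, from 259750 to 260179, had a summit at 259965, 761 bp upstream of its start and 24 bp beyond the 3′ end of pqbp-1.1, with a pooled strength of 43.3 and rank 293. The strongest promoter peak of dpy-9 had a strength of 15.8, 13.9 and 19.5 in replicates 1, 2 and 3, at ranks 460, 362 and 210 (mean 344 ± 126, SD, n = 3). Replicate 1 differed from the others in place: its strongest dpy-9 peak had the summit at 259277, 73 bp upstream, and its peak inside the thresholded interval ranked 633. In replicates 1 and 2 the summits inside the interval, at 259991 and 259990, fell in the 3′ UTR of pqbp-1.1.

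aass-1 (WBGene00019819, plus strand, 245143 to 251925) encodes an enzyme of lysine breakdown. Its thresholded peak, from 244937 to 245366, had the summit at 245152, 1 bp downstream of one of its 2 annotated starts and in its 5′ UTR, with a pooled strength of 37.0 and rank 365. This member varied most between replicates. Its strongest promoter peak had strengths of 10.8, 19.6 and 10.5 in replicates 1, 2 and 3, which put it in the top 4.01%, 0.688% and 2.17% of those lists. The ranks were 1108 and 651 in replicates 1 and 3 (mean over the 3 replicates 651 ± 457, SD, n = 3), and replicate 2 had the best rank of the 3. Without replicate 1 the mean rank was 423. In replicate 1 that peak was another one, 768 bp upstream, and the peak inside the thresholded interval had a strength of 6.68 and rank 4791. In the ce10 version of the pooled list the peak at this place, read without converting coordinates, was at rank 402 with a strength of 35.1, and the 391 thresholded peaks of that build held 5 in the region, the aass-1 peak not among them.

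By rank, the members therefore ran rcat-1, R02D3.8, cogc-8, then dpy-9 and aass-1. The ranges of the first 3 did not overlap each other or the last 2 in any replicate (1 to 2, 6 to 18 and 39 to 81), whereas aass-1 stood above dpy-9 in replicate 2 and below it in replicates 1 and 3. Replicate 2 ranked R02D3.8 and cogc-8 lower than the other replicates did and aass-1 higher. Replicate 3, the one labelled with microtip sonication and a laboratory, had the highest rank of R02D3.8 and dpy-9. For rcat-1 and cogc-8 it was within 1 rank of another replicate.

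**Figure D1:**
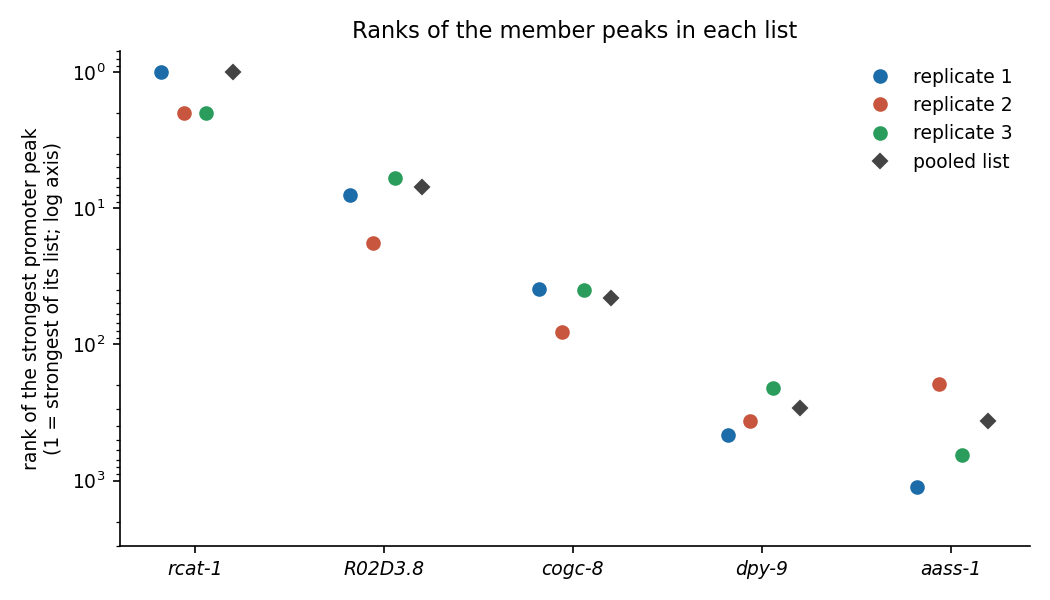
Rank of the strongest promoter peak of each gene (log axis, rank 1 at the top) in replicates 1, 2 and 3 (circles) and in the pooled list (diamonds). rcat-1 sits at ranks 1, 2 and 2, and aass-1 spreads most, with replicate 2 above the pooled diamond and replicates 1 and 3 below it.

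The 6 thresholded peaks of the region were 15.8% of its 38 pooled peaks, where 3.38% of all pooled peaks were kept; the strengths that define this threshold also chose the genes, so nothing is read from the difference. Just inside the threshold stood the aass-1 peak, at rank 365. Just outside it stood a peak with its summit at 240741, in a coding exon of cogc-8 and 434 bp upstream of fnta-1, which had a strength of 35.1 and rank 400. A summit of all 3 replicates lay inside 13 of the 38 pooled peaks (34.2%), against 23.6% of all pooled peaks. The other pooled peaks of the region held a summit of 2 replicates (14 peaks) or 1 replicate (11 peaks). The pooled list was called on the same reads, so this overlap is no independent check. The 13 include all 6 thresholded peaks, whose strengths chose the genes, so nothing is read from the difference in shares. The peak at 255840 counts among the 13 through the main rcat-1 summits of replicates 2 and 3, which lie in its shared interval.

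All 6 thresholded peaks lay between cogc-8 and the intergenic stretch upstream of dpy-9, and each had the other 5 within 20 kb. Of the 364 nuclear thresholded peaks the median had 0 others within 20 kb. The 358 outside the region had at most 2: 256 had none, 84 had 1 and 18 had 2. The strengths of the peaks in the region chose the genes, so these counts are a description and nothing is read from the difference. The summits at 255641 and 255840 share an interval, so the 6 peaks are 5 separate intervals. Over 100 kb either side the count at rcat-1 was still 5, against a median of 1, and 6 peaks elsewhere had as many. The 5 strongest nuclear peaks outside, at Y17G9B.5 and rpl-20, on chromosome II in no promoter window, at rbc-2, at F25B4.4 and hmgs-1, and at sco-1, had none within 20 kb.

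The pooled list as a whole was also dense there. Within 20 kb of the rcat-1 summit lay 17 other pooled peaks, against a median of 7 at nuclear thresholded peaks, and 10 of the 358 thresholded peaks outside the region had as many or more. With the thresholded peaks left out, a step added after seeing the data, 12 pooled peaks remained within 20 kb, against a median of 6, and 39 peaks outside had as many or more. Within 100 kb it was 37 other pooled peaks against a median of 28, with 71 outside as high, and 32 against 27 without the thresholded ones, with 117 outside as high. In the replicate lists the counts within 20 kb were 14, 28 and 21 in replicates 1, 2 and 3, against medians of 15, 15 and 15.5. Within 100 kb they were 57, 74 and 67, against medians of 63.5, 64 and 67, so replicate 2 alone stood above its median there. At 20 kb replicate 1 was below its median, and 223 thresholded peaks outside the region had as many or more of its peaks around them, against 10 in replicate 2 and 48 in replicate 3. Over the whole region, thresholded peaks stood at 29.6 per Mb against 3.41 per Mb in the rest of chromosome IV (8.66 times), and pooled peaks at 187 per Mb against 112 per Mb (1.67 times). The thresholded peaks, whose strengths chose the genes, are part of the pooled count, and without them the pooled densities were 158 per Mb against 109 per Mb (1.45 times). In replicates 1, 2 and 3 the ratio was 1.07, 1.34 and 1.14 (mean 1.18 ± 0.140, SD, n = 3).

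**Figure D2:**
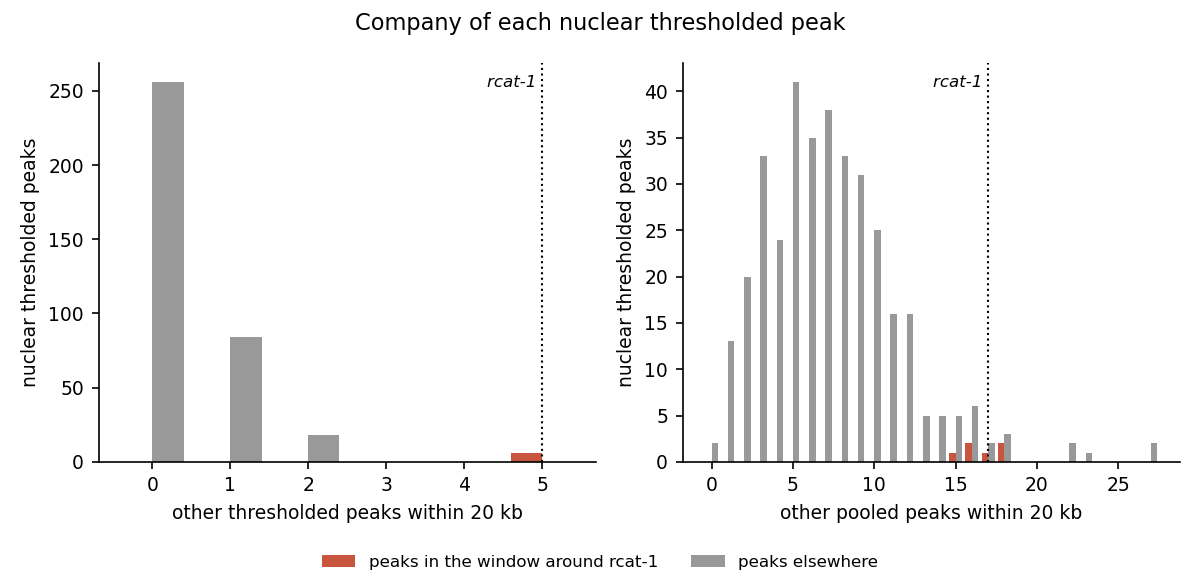
Number of other thresholded peaks (left) and other pooled peaks (right) within 20 kb of each of the 364 nuclear thresholded peaks, for peaks of the region around rcat-1 (red) and elsewhere (grey). All 6 peaks of the region have 5 thresholded neighbours, peaks elsewhere have at most 2, and the dotted line marks the rcat-1 summit. The strengths of the peaks in the region chose the genes.

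The extent of the dense stretch was read from runs of pooled summits. With neighbouring summits at most 2 kb apart, the run that holds the rcat-1 summit had 6 peaks over 4.54 kb, from 252811, 257 bp upstream of the ground-like gene grl-19, to the R02D3.8 summit at 257346. The length depended on the gap allowed: it was 0.199 kb at 1 kb, 7.15 kb at 3 kb and 24.3 kb, with 18 peaks, at 5 kb. The 5 kb run, chosen for the description after the gaps had been seen, went from 235682, in an intron of ints-13, to the dpy-9 peak at 259965. In replicates 1, 2 and 3 the 5 kb run was 19.4, 32.1 and 30.6 kb long with 14, 30 and 24 peaks. Its 18 pooled peaks had a median strength of 18.4, with 8 among the 1000 strongest of the list, whereas the other 20 peaks of the region had a median of 13.3, with 1 among the 1000 strongest. The list as a whole had a median of 13.1. The run holds all 6 thresholded peaks, which fixes part of this difference: without them its other 12 peaks had a median of 16.4, with 2 among the 1000 strongest.

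Beyond the dpy-9 peak the pooled list had no summit for 29.0 kb, up to 288980. Of the 1979 gaps between pooled summits of chromosome IV, 137 (6.92%) were at least as long. The corresponding gaps were 15.9, 16.0 and 29.0 kb in replicates 1, 2 and 3, and 2.83%, 2.70% and 0.158% of the gaps in those lists were as long. Of the 9 genes that start in the pooled gap, 8 had no pooled promoter peak, pqbp-1.1, pat-6, which encodes a protein of muscle attachments, and sma-10 among them. The other, T21D12.14, had the peak that ends the gap, at 288980, with a strength of 16.6 and rank 2681. The gap was defined by having no pooled summit, so the count follows from that choice. Of all annotated genes without piRNA genes, 20.9% had a pooled promoter peak. On the other side the next summit, at 229307 in an intron of gtf-2H1, was 6.38 kb away from the run. The share of reads that falls in the inserted copy was not measured, and its part in the dense stretch was not tested.

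**Figure D3:**
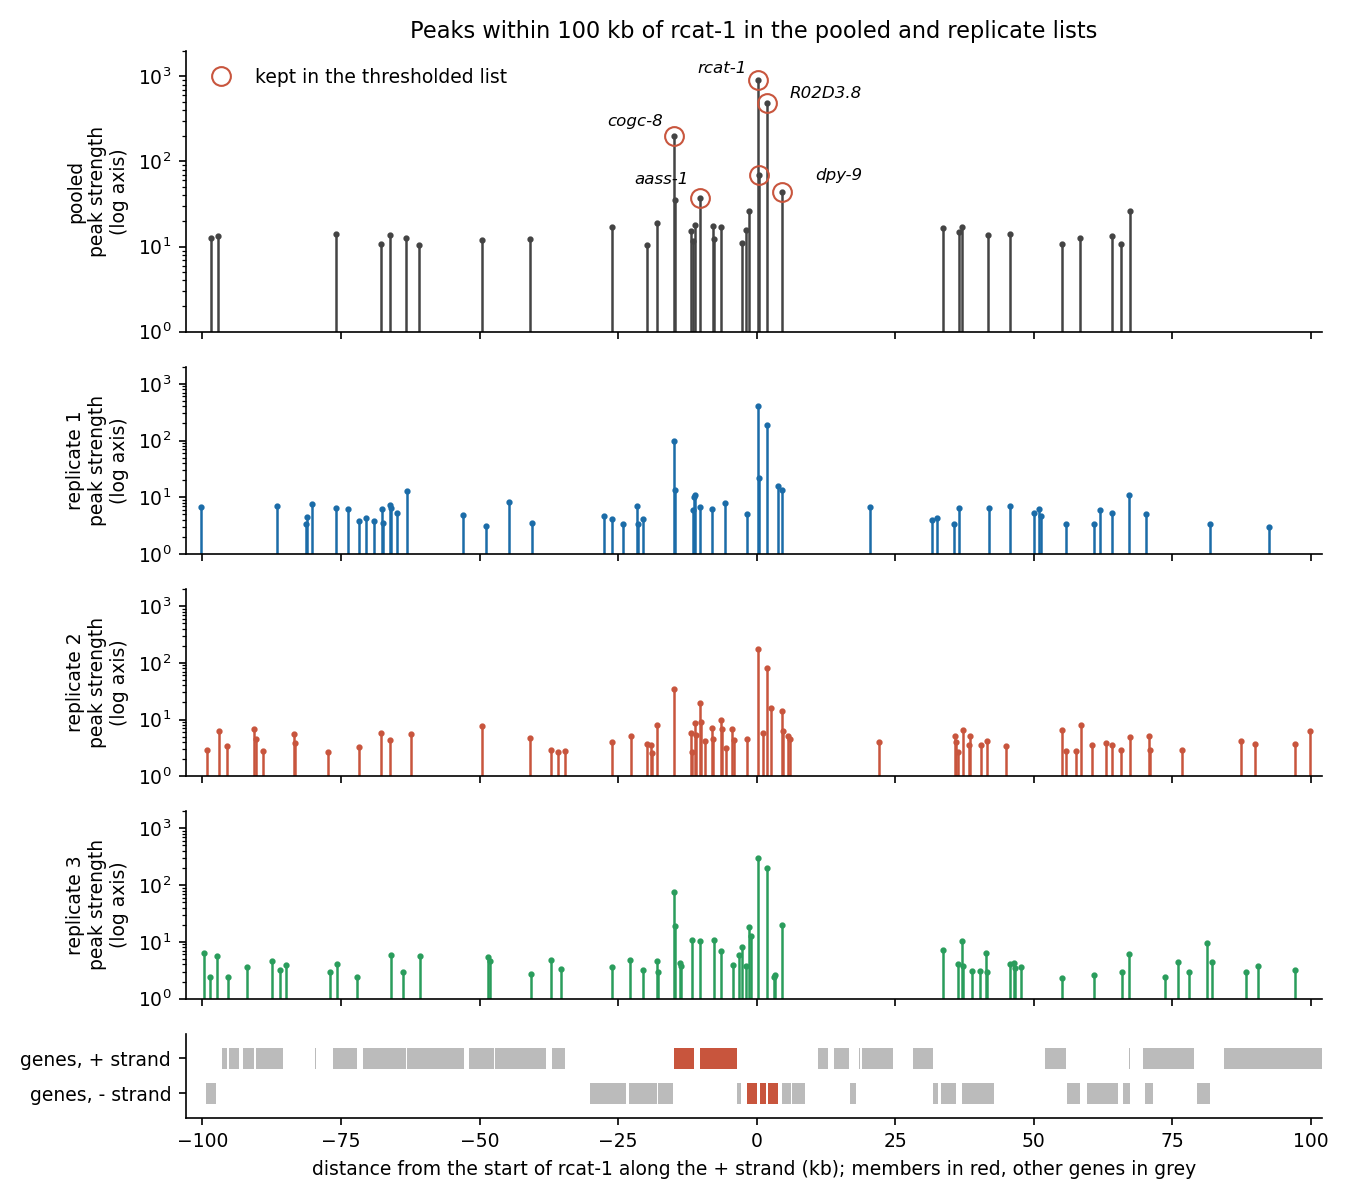
Strength (log axis) of every peak against distance from the rcat-1 start, in kb along the plus strand, in the pooled list and in replicates 1, 2 and 3, with circles around the 6 peaks kept in the thresholded list; the bottom track shows genes by strand, the 5 followed in detail in red. The tall peaks lie within 15 kb of rcat-1, and the pooled list is empty from 5 to 33 kb to its right.

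Inside the run, peaks lay in gene bodies as well as promoters. In the promoter windows of the region lay 21 of its 38 pooled summits (55.3%), against 49% of all pooled summits. Those outside promoters included summits in a coding exon and another exon of cogc-8 (243539 and 243903), in an intron and a coding exon of aass-1 (247515, 247716 and 249076), beyond the 3′ end of rcat-1 (253600) and in an intron of rcat-1 (254135). The last of these ranked 739 with a strength of 26.0 in the pooled list and came from 1 replicate: it had a summit in replicate 3, at rank 224, and none in replicates 1 and 2. Among the 10 strongest of the region outside these were 2 promoter peaks. One, at 322751, had a strength of 26.4 and rank 715 and lay in the windows of the tRNA gene WBGene00023092, of the ground-like gene grl-26 and of K02D7.8. The other, at 237507, had a strength of 18.7 and rank 1849 and lay 57 bp upstream of ints-13, which encodes a subunit of the Integrator complex.

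Of the 48 genes that start in the region, 24 (50%) had a pooled promoter peak, against 20.9% of the 31563 annotated genes without piRNA genes. Among the 41 protein-coding ones it was 20. The annotated genes include non-coding kinds, and the share over all protein-coding genes is not given here. The 24 also include the 6 genes at thresholded peaks, the strengths of which chose the members, so nothing is read from the difference. A thresholded promoter peak was found at 6 of the 48 (12.5%), against 1.89% of annotated genes: the 5 chosen genes and fnta-1. These genes share peaks and neighbours, so they are not independent of each other.

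The 8-mer stood close to the pooled summit at the 3 strongest members. It was derived from the same peaks earlier, so its presence at strong peaks in general is not a result here. At rcat-1 the peak held 2 copies on opposite strands, 255602 to 255609 and 255612 to 255619, with 2 bases between them. Their lower ends were 39 and 29 bp from the pooled summit at 255641. The summits of replicates 1, 2 and 3, at 255670, 255677 and 255661, all lay farther from both copies than the pooled summit did. At R02D3.8 the copy at 257343 to 257350 spanned the summit. The cogc-8 copy at 240527 to 240534 began 11 bp from the summit. No copy lay within 150 bp of the thresholded summits at aass-1 and dpy-9 or of the second summit at rcat-1. However, a copy at 244365 to 244372 lay 87 bp from the weaker pooled summit of aass-1, at 244278 and rank 2021. In replicate 1 the strongest aass-1 promoter peak had its summit at 244375, next to that copy. A CGACAC copy at aass-1, at 245081 to 245086, began 71 bp from the thresholded summit, and cogc-8 also had 1, at 60 bp.

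Words were searched on both strands, and a copy had to lie wholly within 50 bp of the summit. CGTAAATC contains CGTAAA, so their counts overlap. CGTAAA was found at 5 of the 38 pooled peaks of the region (13.2%), against 7.45% of all pooled peaks, and at 3 of its 6 thresholded peaks, against 45.4% of all thresholded peaks. The share for the region is thus close to that of its kind in the thresholded list. CGTAAATC was found at 3.45% of all pooled peaks, 38.2% of thresholded peaks and, over the much longer promoter windows of 29785 protein-coding starts, in 6.06%. CGACAC was found at 4.76% of pooled peaks, 24.6% of thresholded peaks and in 26.3% of promoter windows. Both remaining peaks of the region with CGTAAA were weak: the one at 229307 in gtf-2H1, which held the whole 8-mer, ranked 2527 and the one at 313845, 130 bp upstream of snai-1, ranked 6294.

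Among thresholded peaks the word went with rank, which is a description only, as the word was derived from these peaks. CGTAAATC was present at 62 of the 100 strongest, 43 of ranks 101 to 200, 32 of ranks 201 to 300 and 12 of the 90 peaks at ranks 301 to 390. The peaks of the region had a copy at ranks 1, 7 and 46 and none at ranks 178, 293 and 365; as the ranks chose the genes and the word came from these peaks, this adds nothing to that count. Most copies had no listed summit nearby. Of the 33 copies in the region, 5 had a pooled summit within 50 bp (15.2%) and 4 a thresholded one (12.1%). Of the 6292 copies in the nuclear genome, 7.55% and 2.56% had one. The 4 are among the 5 and lie at peaks whose strengths chose the genes. The word came from these peaks as well, so nothing is read from the differences. Between 235682 and 259965 there are 8 copies, and the 4 at thresholded summits are those at rcat-1, R02D3.8 and cogc-8. The others lie in introns of cogc-8 (242869) and aass-1 (245520), between these genes (244365) and upstream of dpy-9 (259705).

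Copies on both strands within 50 bp of the summit were found at 3 thresholded peaks (0.769%) and 10 pooled ones (0.0867%). Besides rcat-1 these thresholded peaks were the one at rbc-2, Y54F10AM.15 and ndua-8, rank 4, and the one at copz-1 and cyn-4, rank 30. The arrangement at rcat-1, GATTTACG, then 2 bases, then CGTAAATC, occurs 1 time in the nuclear genome. It was looked for after the rcat-1 sequence had been read, and a pattern with 16 fixed bases is rare in any genome of this size, so its single occurrence is a description.

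**Figure D4:**
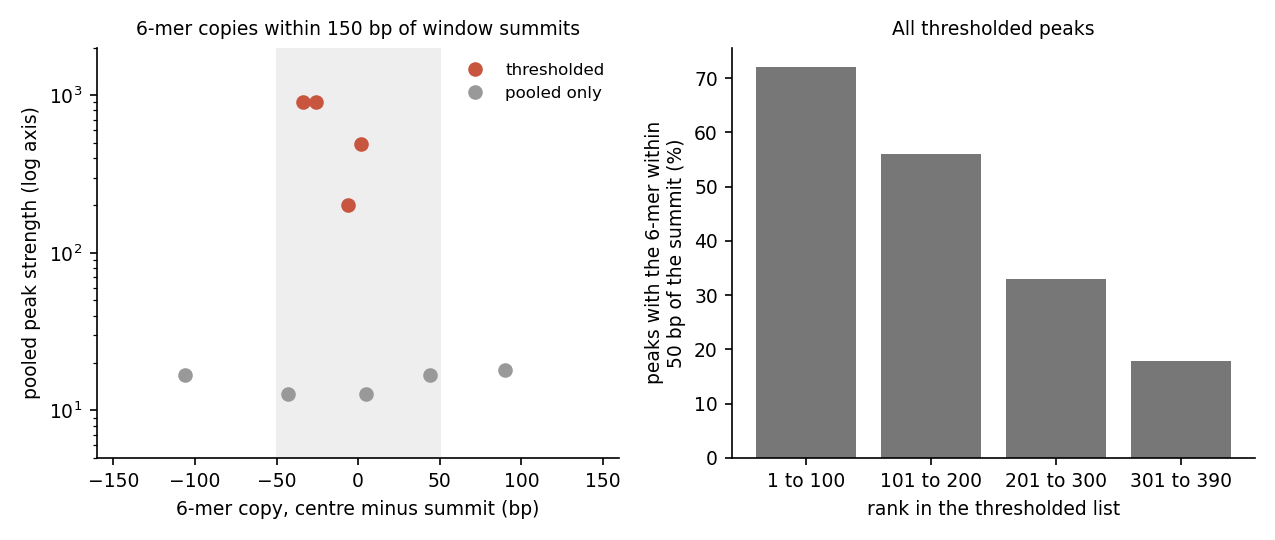
Left, position of each CGTAAA copy (its centre minus the summit, in bp) within 150 bp of a pooled summit of the region against the strength of the peak (log axis); grey shading spans 50 bp either side. Right, percent of thresholded peaks with the 6-mer within 50 bp of the summit by rank, which is 72% for ranks 1 to 100 and 17.8% for ranks 301 to 390. The words were chosen with earlier results of these data known.

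Peaks elsewhere with the most similar replicate ranks were sought for rcat-1 and R02D3.8 among the 331 nuclear thresholded peaks outside the region that had a rank in all 3 replicates. Likeness was the sum, over the 3 replicates, of the absolute difference in log10 rank. For rcat-1 the nearest were the intergenic chromosome II peak, with ranks 2, 1 and 3 and a sum of 0.778, and the peak at Y17G9B.5 and rpl-20, with ranks 3, 4 and 1 and a sum of 1.08. For R02D3.8 they were the peak at ska-3 and the ribosomal protein gene rps-12, with ranks 10, 20 and 8 and a sum of 0.268, and the peak at the ribosomal protein gene rpl-15, with ranks 13, 16 and 10 and a sum of 0.484. In replicate 2 both R02D3.8 and these peaks stood lower than in the other replicates, which the measure of likeness favours.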

How the data were processed

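Peak lists of 3 ChIP-seq replicates of 1 group were analysed in ce11 coordinates, given 1-based; ce11 has the sequence of WBcel235, and all peaks fitted the chromosome lengths of that reference. The description files that the authors deposited say that each replicate was called against 1 control alignment, that the pooled list came from all 3 alignments, and that the irreproducible discovery rate gave the thresholded list. Aligner, caller and cutoff: not given in the sources used here. Strength is the signal column of the deposited lists, and ranks were taken from it in each list alone. The deposited −log10 q took 1 value in all thresholded peaks and was not used. No read counts are in the lists, so the depth is unknown.

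Ranks, promoter assignments, neighbours, runs of summits and words near summits were computed in Python 3.11.15 with pandas 2.3.3, numpy 2.4.6 and scipy 1.17.1, with transcript starts from Ensembl release 115 without piRNA genes. Promoter assignment, the word search and the finding of runs were checked on made-up data with known answers, and ranks and neighbour counts were not. The members, words and lists were chosen with earlier results of these data known, and no test was run; means ± SD are over replicates. The genes named are the 5 members, other genes of the region at a thresholded peak or one of the 10 strongest pooled peaks, those at the ends of the runs, those at the peaks most like rcat-1 and R02D3.8 in rank, and those at the 5 strongest peaks outside; genes named beyond these were chosen after their values were seen. Alternatives were other distances, list lengths, reference regions, gaps, word distances, promoter windows and the ce10 lists, and leaving out each replicate.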

Additional observations from a re-analysis of the deposited data

How the results depend on the processing

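Counts of thresholded peaks in the region (4 to 6), the rank of rcat-1 (1.5 to 2 without each replicate), the mean replicate count of 66.3 (62.5 to 70.5 without each replicate) and the number of genes with a pooled promoter peak (16 to 25) stayed within 1.5 times or 1 SD of the main values under these alternatives. With 3 replicates, leaving 1 out moves a mean by less than 1 SD whatever the values. The ranges without each replicate are therefore a description and no check of stability. Other counts followed the area or list they were taken over. Pooled peaks in the region were 38, but 18 within 20 kb of rcat-1, 25 in the stronger part of the list and 9 among its 1000 strongest, the last chosen after seeing the data. The mean replicate count was 22.3 within 20 kb, 39 within 50 kb, 32.3 among the 10000 strongest and 11.3 among as many of the strongest as 5 times the thresholded list. The pooled density ratio of 1.67 became 3.83 within 20 kb, and 1.45 without the thresholded peaks, which was added after seeing the data. The run length of 4.54 kb became 0.199, 7.15 and 24.3 kb with gaps of 1, 3 and 5 kb, and 19.4, 32.1 and 30.6 kb in replicates 1, 2 and 3 at 5 kb, added after seeing the data. CGTAAA was within 25 bp of 3 summits. The mean rank of aass-1 was 423 without replicate 1 and 1879 when taken inside the thresholded interval. In a grid of 20 kb bins, the bin of rcat-1 held 16 pooled peaks and 14, 21 and 19 peaks of replicates 1, 2 and 3, but 7, 6, 11 and 11 with the grid shifted by 10 kb, a shift added after seeing the data. No paired analysis was possible because there is 1 group. The unknown depth limits what the absence of a peak in a replicate can show.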

Other observations

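Some strong replicate peaks of the region overlapped no pooled peak. In replicate 1 this was the peak with its summit at 259277, 73 bp upstream of dpy-9, with a strength of 15.8 and rank 460. Replicate 2 had one at 258001, in an intron of dpy-9 and in the promoter window of R02D3.8, with a strength of 15.8 and rank 291. Replicate 3 had one at 336640, in an intron of pxmp-4, with a strength of 9.63 and rank 848. These are all such peaks among the 1000 strongest of each replicate list.

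The promoter window of snai-1, which encodes a zinc finger protein of the snail family, held 2 copies of CGTAAA within 50 bp of a pooled summit at 313845, with a strength of 12.7 and rank 6294. Replicate 2 had a summit there, at rank 1972, and replicates 1 and 3 had none.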
